A study of Mus musculus with 6 samples.

Results

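The expression of 8 non-chemokine chemoattractant receptors was examined in osteoclast precursors of mice with inflammatory bone destruction. The members were chosen by gene symbol: the formyl peptide receptors *Fpr1* and *Fpr2*, the lipid receptors *Ltb4r1* and *Ptafr*, the anaphylatoxin receptors *C5ar1* and *C3ar1*, the chemerin receptor *Cmklr1* and the metabolite receptor *Hcar2*. All 8 are listed among the 24346 gene symbols of the RNA-Seq tables. All 6 mice carried a CX3CR1-EGFP knock-in allele, in which the *Cx3cr1* locus drives a green reporter of the monocyte lineage, and the calvarial periosteum of all was injected with 20 mg/kg of lipopolysaccharide (LPS). In the JAK inhibitor group (3 mice), ABT-317, a selective inhibitor of JAK1, was given by mouth at 60 mg/kg in each of 2 doses per day over 5 days, and the 3 mice of the vehicle group had the carrier solution alone. Calvarial marrow was then collected by crushing the bone and EGFP+ cells were sorted, without a further lineage gate in the sources used here, and the age and sex of these mice are not given there. Mice without LPS were not analysed here, so the comparison is between treatments within inflammation.

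Chemoattractant receptors are G protein-coupled receptors that steer myeloid cells along gradients of microbial, complement and lipid signals. They act mainly through Gi proteins, whose beta-gamma subunits activate phosphoinositide 3-kinase gamma and Rac guanine nucleotide exchange factors, and they also trigger the oxidative burst. Formyl peptides are shed by bacteria and damaged mitochondria, C5a and C3a are cut from complement proteins, and leukotriene B4 and platelet-activating factor (PAF) are made from membrane lipids by leukocytes. In inflamed bone, monocytes and neutrophils both use these receptors.

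The values are FPKM, which are scaled by transcript length and library size, so that levels can be compared between genes. They were compared on the log2(FPKM + 1) scale with limma over the 11301 genes that reached an FPKM of 1 in at least 1 mouse, and fold changes below are JAK inhibitor minus vehicle on that scale. The FPKM summed to between 688372 and 775790 per library, and these sums are not read counts, so the depth is unknown. The sorted cells held the monocyte and osteoclast precursor markers *Tyrobp*, *Ly6c2* and *F13a1*, with mean FPKM of 4127, 3944 and 606 in vehicle-treated mice, and *Csf1r*, the receptor of the growth factor M-CSF, had 396. They also held genes of other myeloid cells in every library. Among these, *Mpo* and *Elane*, granule proteins of neutrophil precursors, had 3105 and 1924, and *S100a8*, abundant in neutrophils and monocytes, had 11408.

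Of the 8 receptors, 7 were tested, and 5 had lower values with JAK inhibitor at an unadjusted limma p under 0.05: *C3ar1*, *Fpr2*, *Fpr1*, *C5ar1* and *Cmklr1*. In each of the 5, all 3 JAK inhibitor-treated mice lay below all 3 vehicle-treated mice. None was higher. Among all genes tested, 9.4% were lower and 6.57% were higher at this threshold, and 12.1% had JAK inhibitor values that lay wholly below vehicle values. In 1121 of the 11301 genes they lay wholly above. After adjustment over all genes in limma, 0 receptors passed 0.05, against 0.133% of all genes tested. The median log2 fold change was -0.61 over the 7 tested receptors and -0.00 over all genes tested. *Cmklr1* reached the filter on low values in vehicle-treated mice only, which favors a lower value with JAK inhibitor, so its place in the count is a description, and the receptors share the same 6 libraries. All 7 tested receptors were highest in vehicle-treated mouse 3. Without this mouse 4 receptors were lower at the unadjusted threshold, and over all alternatives tried the count was between 4 and 6. Since each library is a bulk sample, fewer cells of a type and less RNA per cell cannot be told apart.

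**Figure D1:**
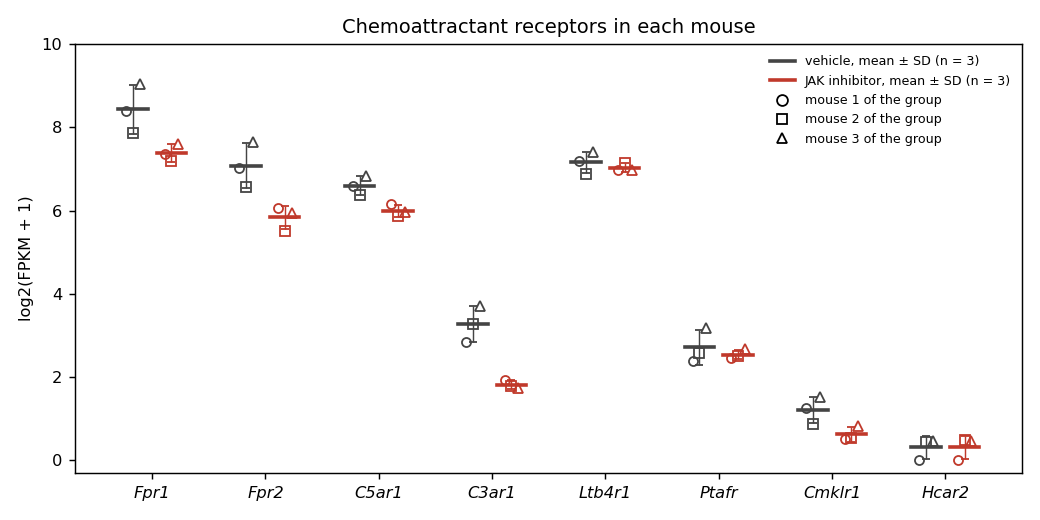
Level of each receptor, as log2(FPKM + 1), in each of the 3 vehicle-treated (grey) and 3 JAK inhibitor-treated (red) mice, with the group mean (thick line) and SD (thin bar); the marker shape gives the number of the mouse within its group. The groups of *Fpr1*, *Fpr2*, *C5ar1*, *C3ar1* and *Cmklr1* do not overlap, and those of *Ltb4r1*, *Ptafr* and *Hcar2* do.

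*Fpr1* and *Fpr2* encode the main formyl peptide receptors of mouse myeloid cells. FPR1 responds to short formylated peptides, and FPR2 also binds annexin A1, serum amyloid A and the cathelicidin peptide. The genes are neighbors on mouse chromosome 17 (GRCm38) and point away from each other: *Fpr1* lies on the minus strand at chr17:17876471-17883940 and *Fpr2* on the plus strand at chr17:17887824-17893952, with 3883 bases between them in GENCODE M21. The 250 bases before each RefSeq transcription start are shown because both genes were lower together and face the same stretch of DNA. Capitals mark matches of 4 motifs searched on both strands: a STAT site (TTCNNNGAA), a C/EBP site (TTNCNNAA), a PU.1 site (GAGGAA) and an NF-kB site (GGGANTTNC). The sequences are RefSeq, on GRCm38.p6, 5′ to 3′ on the strand of each gene, at chr17:17883940-17884189 for *Fpr1* and chr17:17887574-17887823 for *Fpr2*.
Fpr1 promoter: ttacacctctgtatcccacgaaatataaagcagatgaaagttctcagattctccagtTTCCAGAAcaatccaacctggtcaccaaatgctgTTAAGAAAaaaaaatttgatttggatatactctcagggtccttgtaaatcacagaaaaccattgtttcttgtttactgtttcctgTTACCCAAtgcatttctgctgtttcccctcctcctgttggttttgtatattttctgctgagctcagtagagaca
Fpr2 promoter: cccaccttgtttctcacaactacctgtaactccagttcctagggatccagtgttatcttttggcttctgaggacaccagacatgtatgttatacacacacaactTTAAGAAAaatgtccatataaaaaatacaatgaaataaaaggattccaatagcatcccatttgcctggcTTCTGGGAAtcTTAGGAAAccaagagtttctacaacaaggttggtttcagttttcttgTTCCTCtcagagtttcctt
In the *Fpr2* sequence, TTCTGGGAA matches the STAT pattern between 77 and 69 bases before the start. Of 32851 RefSeq promoters of this length, 7.02% hold a match to it. The promoters of 7 of the 8 receptors were found in the table, and *Fpr2* was the only 1 of these 7 with such a match. The other capitals are 3 C/EBP matches in *Fpr1*, and 2 C/EBP matches and 1 PU.1 match in *Fpr2*. C/EBP matches were found in 3 of the 7 receptor promoters against 36.8% of all promoters, PU.1 matches in 4 of 7 against 23.3%, and NF-kB matches in 0 of 7 against 3.54%. Matches did not overlap each other. They describe letters in the window and were not tested for binding.

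*Fpr1* had the highest level of the 8 receptors in every mouse. Its FPKM was 335, 233 and 521 in vehicle-treated mice 1 to 3 and 163, 144 and 194 in JAK inhibitor-treated mice 1 to 3. The lowest vehicle value was thus above the highest JAK inhibitor value. The means were 363 ± 146 (SD, n = 3) and 167 ± 25.3 (SD, n = 3), a 2.17-fold higher mean with vehicle. The log2 fold change was -1.05 (standard error, SE, 0.25, 95% interval -1.61 to -0.48), with an adjusted p of 0.118 in limma. In an exact 2-sided permutation test p was 0.1, the least that groups of 3 can reach, for *Fpr1*, *Fpr2*, *C5ar1* and *C3ar1* alike.

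*Fpr2* had an FPKM of 129, 93.9 and 198 in vehicle-treated mice and 65.6, 44.8 and 60.2 in JAK inhibitor-treated mice. The groups were separate, and vehicle-treated mouse 3 was again the highest. The means were 140 ± 52.8 and 56.8 ± 10.8 (SD, n = 3 each), with a log2 fold change of -1.24 (SE 0.25, 95% interval -1.80 to -0.68, adjusted p = 0.102 in limma). Part of the *Fpr2* transcript cannot be assigned to it alone: 271 of its 1295 windows of 75 bases, the read length, also occur in transcripts of *Fpr3* or *Gm5966*. *Fpr3*, a close relative whose annotated span overlaps *Fpr2* on the same strand, was listed at 0 in 5 mice and at 0.075 in JAK inhibitor-treated mouse 1. *Fpr1* shares none of its 1250 windows with another gene.

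The 2 formyl peptide receptors kept nearly the same proportion in every vehicle-treated mouse, although their levels differed more than 2-fold between these mice. The log2 ratio of *Fpr2* to *Fpr1* was -1.37, -1.30 and -1.39 in vehicle-treated mice and -1.30, -1.66 and -1.67 in JAK inhibitor-treated mice. JAK inhibitor-treated mouse 1 lay among the vehicle-treated mice, and the other two had relatively less *Fpr2*. The groups overlapped, and the difference of -0.19 gave p = 0.3 in an exact 2-sided permutation test. Of the 12 genes listed within 250000 bases of the pair, only *Fpr1* and *Fpr2* reached an FPKM of 1 in any mouse. The paralogs *Fpr-rs3*, *Fpr-rs4* and *Fpr-rs6* were listed at 0 in every mouse.

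*C5ar1* and *C3ar1* encode the receptors of the complement fragments C5a, a strong chemoattractant of neutrophils and monocytes, and C3a. *C5ar1* lies on the minus strand of chromosome 7 (chr7:16246743-16259540) and *C3ar1* on the minus strand of chromosome 6 (chr6:122847138-122856161). The 250 bases before their RefSeq starts, at chr7:16259339-16259588 and chr6:122856158-122856407, are shown because this pair was lower by unequal amounts. Capitals mark the same motifs. The RefSeq starts of *C5ar1* and *C3ar1* lie inside the spans that GENCODE gives these genes, as that of *Fpr1* does. *C5ar1* has 3 annotated transcripts.
C5ar1 promoter: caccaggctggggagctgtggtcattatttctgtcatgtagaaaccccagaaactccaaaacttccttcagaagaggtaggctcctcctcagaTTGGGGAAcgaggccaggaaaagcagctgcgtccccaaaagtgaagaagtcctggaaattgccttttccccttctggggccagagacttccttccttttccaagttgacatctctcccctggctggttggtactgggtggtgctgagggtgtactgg
C3ar1 promoter: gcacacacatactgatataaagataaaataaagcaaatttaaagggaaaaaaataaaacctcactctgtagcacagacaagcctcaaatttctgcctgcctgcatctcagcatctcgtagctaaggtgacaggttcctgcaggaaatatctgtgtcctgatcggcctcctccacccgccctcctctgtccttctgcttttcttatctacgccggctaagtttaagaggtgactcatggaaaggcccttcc
The *C5ar1* window held 1 match, to the C/EBP pattern, and the *C3ar1* window held none of the 4 motifs. Their GC content was 52.8% and 45.6%, against 38.4% and 38.8% for *Fpr1* and *Fpr2*.

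*C3ar1* had the largest difference among the 7 tested receptors. Its FPKM was 6.20, 8.74 and 12.0 in vehicle-treated mice and 2.82, 2.43 and 2.33 in JAK inhibitor-treated mice. The JAK inhibitor-treated mice lay close together, whereas the vehicle-treated mice spread about their mean of 8.98 ± 2.90 (SD, n = 3). The mean with JAK inhibitor was 2.53 ± 0.260 (SD, n = 3), so that the vehicle mean was 3.55-fold higher. The log2 fold change was -1.46 (SE 0.22, 95% interval -1.96 to -0.96), with an unadjusted p of 0.000101 and an adjusted p of 0.0557 in limma. In 5 of 14 alternatives its adjusted p in limma passed 0.05, over a range of 0.0263 to 0.226.

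*C5ar1* was expressed at a higher level and differed less. Its FPKM was 95.3, 81.9 and 112 in vehicle-treated mice and 70.0, 57.4 and 61.0 in JAK inhibitor-treated mice, without overlap. The means were 96.5 ± 15.2 and 62.8 ± 6.51 (SD, n = 3 each), and the log2 fold change was -0.61 (SE 0.13, 95% interval -0.90 to -0.31, adjusted p = 0.109 in limma). *C5ar2*, the second C5a receptor, which signals poorly through G proteins, had 1.5, 2.13 and 4.13 with vehicle and 0.660, 1.53 and 1.72 with JAK inhibitor. Its groups overlapped, and its log2 fold change was -0.60 (SE 0.31, adjusted p = 0.382 in limma).

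The balance of the anaphylatoxin receptors differed between the groups. In vehicle-treated mice the FPKM of *C5ar1* was 15.4, 9.37 and 9.37 times that of *C3ar1*, and in JAK inhibitor-treated mice it was 24.8, 23.7 and 26.1 times. All JAK inhibitor-treated mice lay above all vehicle-treated mice. On the log2(FPKM + 1) scale the ratio was 3.32 ± 0.37 with vehicle and 4.17 ± 0.07 with JAK inhibitor (SD, n = 3 each), a difference of 0.86 with p = 0.1 in the exact 2-sided permutation test, the smallest possible. With a pseudocount of 0.1 the difference was 1.13.

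**Figure D2:**
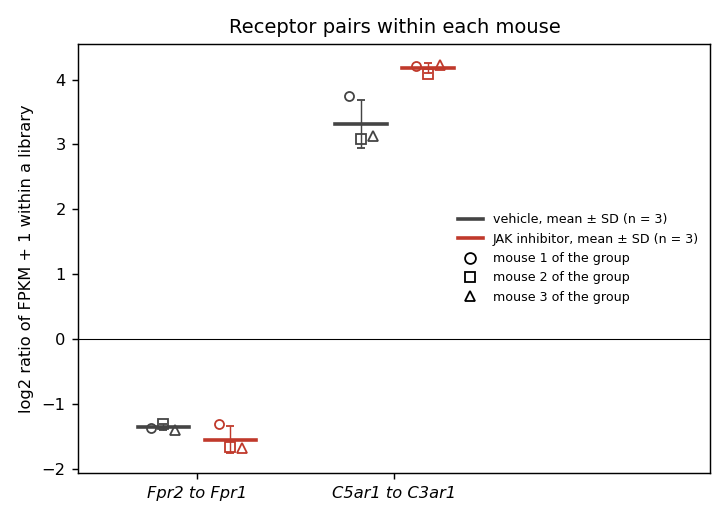
Log2 ratio of (FPKM + 1) within each library for *Fpr2* to *Fpr1* and *C5ar1* to *C3ar1*, in vehicle-treated (grey) and JAK inhibitor-treated (red) mice, with mean (thick line) and SD (thin bar), n = 3. The *Fpr2* to *Fpr1* ratio overlaps between groups, whereas the *C5ar1* to *C3ar1* ratio is between 3.09 and 3.74 with vehicle and between 4.09 and 4.22 with JAK inhibitor.

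The lipid receptors were not lower by the same measure. *Ltb4r1* (plus strand, chr14:55765962-55768494) encodes BLT1, the high-affinity receptor of leukotriene B4. Its FPKM was 146, 117 and 167 in vehicle-treated mice and 125, 141 and 124 in JAK inhibitor-treated mice. The groups overlapped, with JAK inhibitor-treated mouse 2 above vehicle-treated mouse 2. The log2 fold change was -0.13 (SE 0.13, 95% interval -0.43 to 0.17, adjusted p = 0.682 in limma), and the exact permutation test gave p = 0.6. This interval does not include the estimates of *Fpr1*, *Fpr2*, *C5ar1* or *C3ar1*, although the differences between receptors were not themselves tested. Without vehicle-treated mouse 2, the lowest of its group, the log2 fold change was -0.27 and passed the unadjusted threshold. *Ltb4r2*, the low-affinity receptor, stayed below an FPKM of 1, with at most 0.383 in a mouse.

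*Ptafr* (plus strand, chr4:132564067-132582683), the receptor of PAF, had a low level, with an FPKM of 4.24, 4.95 and 8.11 in vehicle-treated mice and 4.50, 4.65 and 5.37 in JAK inhibitor-treated mice. Only vehicle-treated mouse 3 stood above the JAK inhibitor-treated mice by more than the spread of that group. The log2 fold change was -0.17 (SE 0.22, 95% interval -0.67 to 0.32, adjusted p = 0.745 in limma), with p = 0.7 in the exact permutation test. Without vehicle-treated mouse 3 it was 0.062, so the direction rests on that mouse. A p that misses the threshold does not show that *Ptafr* or *Ltb4r1* was the same in both groups.

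*Cmklr1* and *Hcar2* were near the lower end of what was measured. *Cmklr1* (minus strand, chr5:113612354-113650426), the receptor of chemerin, had an FPKM of 1.38, 0.839 and 1.86 in vehicle-treated mice and 0.427, 0.446 and 0.782 in JAK inhibitor-treated mice. The groups were separate, and vehicle-treated mouse 2 lay nearest to the JAK inhibitor-treated mice. *Cmklr1* reached the filter on low values in vehicle-treated mice only, which favors a lower value with JAK inhibitor, so its fit is a description. The log2 fold change was -0.59 (SE 0.25, 95% interval -1.14 to -0.03, adjusted p = 0.288 in limma). With a pseudocount of 0.1 it was -1.14. It no longer passed the unadjusted threshold without JAK inhibitor-treated mouse 1 (-0.53) or 2 (-0.54), without vehicle-treated mouse 1 (-0.57) or 3 (-0.44), or with weights for each library (-0.50). *Hcar2* (minus strand, chr5:123863570-123865499), which senses nicotinic acid and the ketone body beta-hydroxybutyrate, was listed at 0 in mouse 1 of each group and between 0.369 and 0.407 in the other 4 mice, and no fold change was tested. *Gpr1*, a second chemerin receptor, and *Hcar1* were listed at 0 in every mouse, and *Ccrl2*, which binds chemerin without signaling, is described with the related receptors.

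The order of the receptors by FPKM was similar in the groups. With vehicle, *Fpr1* stood above *Ltb4r1*, *Fpr2* and *C5ar1*, whose ranges overlapped between neighbors, followed by *C3ar1* and *Ptafr*, which overlapped, and then by *Cmklr1* and *Hcar2*. With JAK inhibitor, *Fpr1* was still first and *Ltb4r1* was second without overlap with the next, *C5ar1* and *Fpr2* overlapped, and *Ptafr* stood above *C3ar1*. The 8 receptors together summed to between 540 and 1021 FPKM in vehicle-treated mice and between 395 and 448 in JAK inhibitor-treated mice. *Ltb4r1* made up 19.4% ± 2.73 of this sum with vehicle and 30.7% ± 4.34 with JAK inhibitor (SD, n = 3 each), and *Fpr2* 18.3% ± 1.01 and 13.3% ± 1.94. Both shares had groups that did not overlap. The same held for the smaller shares of *Ptafr* (0.77% and 1.14%) and *C3ar1* (1.22% and 0.60%). The shares of a mouse are parts of the same sum, so a share can rise without a rise in level. The mean FPKM of *Ltb4r1* itself was 143 with vehicle and 130 with JAK inhibitor, with overlap. The share of *Fpr1* was 46.9% ± 4.0 and 39.2% ± 3.65 with overlapping groups.

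The genes whose log2(FPKM + 1) followed a receptor most closely over the 6 libraries, among tested genes with a mean FPKM of at least 5, were sought for the 5 receptors that were lower. For *Fpr1* they were *C1rl*, *Slc31a1*, a copper transporter, and *Adam8*, a membrane protease of leukocytes, with Pearson r of at least 0.996. For *Fpr2* they were *Psmc1*, a proteasome subunit, the UDP receptor *P2ry6* and the costimulatory ligand *Cd86*, with r between 0.994 and 0.998. *P2ry6* was also among the 3 of *C5ar1*, with *Hint2* and *Ms4a3*, a gene of granulocyte and monocyte progenitors, and r was at least 0.993. For *C3ar1* they were *Sapcd2*, *Rnh1* and the NF-kB inhibitor *Nfkbia*, with r between 0.988 and 0.990. For *Cmklr1* they were *N4bp1*, *Slc31a1* and *Tbl3*. The libraries fall into 2 treatment groups and the genes are the best of the 7741 tested genes at this level, so these values describe 6 shared libraries and carry no test. The vehicle and JAK inhibitor means were 20.02 and 4.84 FPKM for *Adam8*, 20.5 and 12.6 for *Cd86*, and 357 and 173 for *Nfkbia*.

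Among 24 listed related receptors in the tables, 14 were tested, of which 5 were lower and 1 was higher at an unadjusted limma p under 0.05. Over all genes tested these shares were 9.4% and 6.57%. The median log2 fold change of the related receptors was -0.32, beside -0.00 over all genes. *Gpr84*, a receptor of medium-chain fatty acids on activated macrophages and neutrophils, had an FPKM of 44.0, 33.1 and 92.4 in vehicle-treated mice and 20.6, 19.8 and 15.7 in JAK inhibitor-treated mice, with a log2 fold change of -1.42 (SE 0.31). *P2ry6*, a receptor of UDP released by dying cells, had 19.6, 16.5 and 23.4 against 13.1, 11.5 and 12.4 (-0.63). These and *Ccrl2*, with 9.32 ± 0.701 against 5.78 ± 0.724 (-0.61), and *Cysltr1*, a receptor of cysteinyl leukotrienes, with 11.6 ± 1.38 against 7.42 ± 0.964 (-0.59), had groups that did not overlap. Their adjusted p in limma ranged from 0.109 to 0.129. The prostaglandin E2 receptors differed in direction: *Ptger3* was lower, with 3.59 ± 0.758 and 2.13 ± 0.399 (-0.55, adjusted p = 0.233 in limma), and *Ptger4*, which raises cyclic AMP, was higher, with 11.8 ± 1.33 and 15.8 ± 1.89 (0.39, adjusted p = 0.227 in limma). *Ptger2*, of the same family, had overlapping groups, with 6.17 ± 0.795 and 7.11 ± 1.17 (0.17, adjusted p = 0.654 in limma). Values after ± are SD with n = 3.

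**Figure D3:**
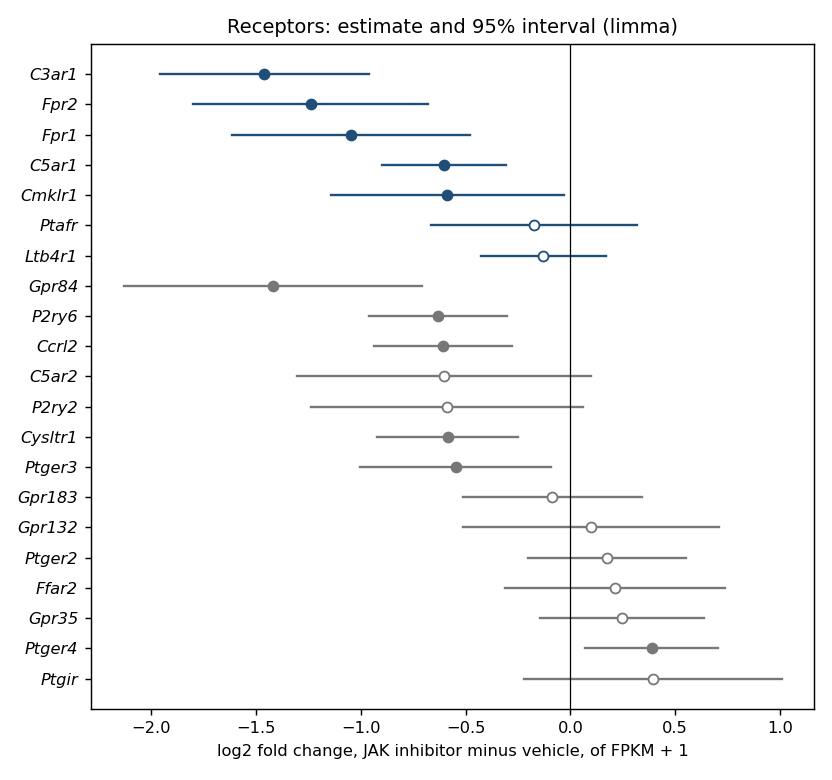
Log2 fold change of FPKM + 1, JAK inhibitor minus vehicle, with its 95% interval from limma, for the 7 tested chemoattractant receptors (blue) and the 14 tested related receptors (grey), n = 3 mice per group. Filled points have an unadjusted p under 0.05: 5 of the blue and 5 of the grey receptors are filled below 0, and *Ptger4* (0.39) is the only filled point above 0.

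Genes of the ligands and of secreted proteins linked to these receptors moved in both directions. Of 13 listed in the tables, 10 were tested, with 4 lower (beside 9.4% of all genes tested), 2 higher (beside 6.57%) and a median log2 fold change of -0.38. Ligands of FPR2 were on both sides. *Saa3*, a serum amyloid A of macrophages, had an FPKM of 4090, 2221 and 12974 in vehicle-treated mice and 452, 249 and 550 in JAK inhibitor-treated mice, with a log2 fold change of -3.63 (SE 0.56, adjusted p = 0.0557 in limma). *Anxa1*, which encodes annexin A1, had 916, 817 and 1018 against 812, 689 and 755 (-0.28, SE 0.11, adjusted p = 0.241 in limma). *Camp*, which encodes the cathelicidin CRAMP and is stored in neutrophil granules, went the other way, with 264, 289 and 182 against 1097, 470 and 824 (1.64, SE 0.29, adjusted p = 0.0781 in limma). In all 3 genes the groups did not overlap, beside 12.1% of all genes tested wholly lower and 1121 of 11301 wholly higher.

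The other listed genes that passed the unadjusted threshold were *Lcn2* (-1.66), *App* (-0.47), whose amyloid beta fragment binds FPR2, and *Elane* (1.12), the neutrophil elastase. *C3*, the source of C3a, had 152 ± 29.7 in the vehicle group and 177 ± 11.9 in the JAK inhibitor group (SD, n = 3 each) and overlapped (0.24, adjusted p = 0.444 in limma), so the cells held *C3* transcripts in both groups while *C3ar1* was lower. *Rarres2*, the gene of chemerin, stayed at or below 0.358, and *Hc*, the mouse gene of complement C5, was listed at 0 in every mouse. *Camp* and *Elane* are also neutrophil precursor markers, and *S100a8*, in the ligand list too, is a mature neutrophil marker (-0.56, adjusted p = 0.376 in limma).

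The enzymes of leukotriene B4 and PAF were compared with their receptors. Of 18 listed genes, 16 were tested, with 2 lower (12.5%, beside 9.4% of all genes tested), 2 higher (beside 6.57%) and a median of -0.07. Of the leukotriene genes, *Alox5ap*, the activating protein of 5-lipoxygenase, had 1023 ± 108 and 921 ± 109 (SD, n = 3 each; -0.15), and *Alox5* had 37.3 ± 1.54 and 38.2 ± 3.05 (0.03), both with overlapping groups. *Lta4h*, whose enzyme makes leukotriene B4, had 255, 241 and 159 in vehicle-treated mice and 283, 272 and 275 in JAK inhibitor-treated mice (0.37, SE 0.16, adjusted p = 0.307 in limma). It was higher in every JAK inhibitor-treated mouse, and vehicle-treated mouse 3 was the lowest.

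Of the PAF genes, *Lpcat2*, which makes PAF in inflammatory cells, had 92.0, 67.0 and 96.1 with vehicle and 56.7, 62.8 and 60.1 with JAK inhibitor (-0.48, SE 0.14, adjusted p = 0.157 in limma). *Pla2g7*, the secreted PAF acetylhydrolase that degrades it, had 578, 393 and 793 against 295, 242 and 302 (-1.02, SE 0.22, adjusted p = 0.109 in limma). *Pafah1b1*, the LIS1 subunit of an intracellular PAF acetylhydrolase and a regulator of dynein, had 4.43, 4.06 and 4.54 against 7.11, 7.14 and 7.13 (0.61, SE 0.14, adjusted p = 0.114 in limma). *Lpcat2* of PAF synthesis and *Pla2g7* of its breakdown were thus lower and *Pafah1b1* was higher, each without overlap, while *Ptafr* overlapped. Their listed relatives *Pafah1b2* (-0.20), *Pafah1b3* (0.39), *Pafah2* (-0.41), *Lpcat1* (-0.11) and *Lpcat4* (0.18) overlapped too.

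**Figure D4:**
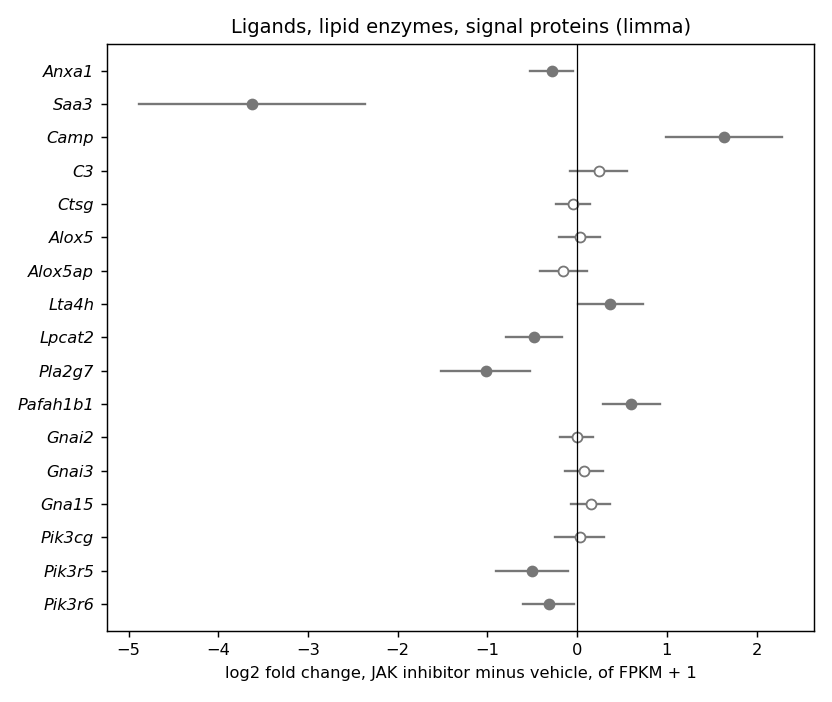
Log2 fold change of FPKM + 1, JAK inhibitor minus vehicle, with its 95% interval from limma, for selected listed genes of ligands (top), leukotriene and PAF enzymes (middle) and signal proteins (bottom), n = 3 mice per group. Filled points have an unadjusted p under 0.05; *Saa3* (-3.63) and *Camp* (1.64) lie farthest from 0 on opposite sides, and *Gnai2* (-0.00) lies on it.

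The shared signaling proteins went both ways. All 35 listed genes were tested, with 4 lower (11.4%, beside 9.4% of all genes tested), 3 higher (6.57% of all genes tested) and a median log2 fold change of -0.00. *Gnai2*, the main Gi alpha subunit of leukocytes, had 477 ± 18.8 and 476 ± 24.8 (SD, n = 3 each), and *Pik3cg*, the catalytic subunit of phosphoinositide 3-kinase gamma, had 22.3 ± 0.661 and 22.9 ± 2.97. Both regulatory subunits of this kinase were lower, *Pik3r5* (-0.50), whose groups overlapped, and *Pik3r6* (-0.32), whose groups did not (adjusted p = 0.220 and 0.267 in limma). *Rgs2*, which shortens G protein signals, was higher, with 82.2 ± 8.71 and 106 ± 6.62 (0.37, adjusted p = 0.154 in limma), and *Adrbk1*, the receptor kinase GRK2, was lower, with 63.5 ± 6.97 and 50.0 ± 5.52 (-0.34, adjusted p = 0.215 in limma). The 6 genes with the smallest p also included *Ncf4*, a subunit of the NADPH oxidase (-0.25), and *Dock2*, a Rac activator of leukocytes (0.34). Over the 4 lists of related receptors, ligands, enzymes and signal proteins together, 15 of 75 tested genes were lower and 8 were higher, beside 9.4% and 6.57% of all genes tested.

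Markers of other cells moved with the treatment, and the values are given because most of these receptors are found on several myeloid cells. The 12 listed macrophage markers summed to between 2302 and 3044 FPKM in vehicle-treated mice and between 1270 and 1528 in JAK inhibitor-treated mice without overlap. Of the 11 tested, 6 were lower at the unadjusted threshold (54.5%, beside 9.4% of all genes tested) and 0 higher (beside 6.57%). *Apoe* had means of 1823 and 832, *C1qb* 144 and 41.8, and *Cd68* 432 and 408. Of 12 listed mature neutrophil markers, *Ly6g* was not among the gene symbols. The other 11 summed to between 10913 and 21874 and between 7229 and 14170, which overlap. Of these, 6 were lower (54.5%, beside 9.4% of all genes tested) and 0 higher (beside 6.57%). Among them *Slpi* had 909 and 758, and *S100a9* (2740 and 2392) and *S100a8* (11408 and 7740) had overlapping groups. The log2 fold change was below 0 in 10 of the 11 and above it in 1, *Csf3r*, with 49.1 and 56.0 without overlap. The 10 neutrophil precursor markers had overlapping sums, between 16552 and 20150 and between 17198 and 18883. Of these, 2 were lower (20%, beside 9.4% of all genes tested) and 5 higher (beside 6.57%), with a median log2 fold change of 0.60. *Mpo* had 3105 and 5519 and *Elane* 1924 and 3880, whereas *Chil3* had 9898 and 3809 (-1.39, adjusted p = 0.0189 in limma). The 14 osteoclast precursor and monocyte markers summed to between 8909 and 11089 and between 10495 and 11419, with overlap. Of these, 3 were lower (21.4%, beside 9.4% of all genes tested) and 3 higher (beside 6.57%).

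Other lists were small. T and NK cell markers, nearly all of it *Nkg7* with means of 286 and 515, summed to between 203 and 373 and between 491 and 571, with *Gzma* at 17.3 and 4.62 and *Ncr1* at 0.990 and 0.421. Erythroid markers summed to between 0.690 and 2.77 and between 6.09 and 51.1, led by *Hba-a1*, *Klf1* and *Hbb-bs*. Dendritic cell markers (*Flt3*, *Siglech*, *Itgax*), B cell markers (*Cd79b*, *Vpreb1*, *Cd79a*) and stroma markers (*Runx2*, *Bglap*, *Ibsp*) each summed to at most 55.0 in a mouse, with groups that overlapped. The B cell markers *Ms4a1* and *Pax5* and the osteoblast marker *Sp7* were listed at 0 in every mouse.

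Each receptor was therefore also expressed relative to the mean log2(FPKM + 1) of the tested markers of a cell type in the same library, a comparison of 7 receptors with each of 3 lists that was added after the values were seen. Relative to the 14 osteoclast precursor and monocyte markers, the differences were -1.17 for *Fpr1*, -1.37 for *Fpr2*, -0.73 for *C5ar1* and -1.59 for *C3ar1*, all without overlap (exact 2-sided permutation test, p = 0.1 each). *Cmklr1* differed by -0.72, given without a test because it passed the filter through the vehicle group. *Ltb4r1* (-0.26) and *Ptafr* (-0.30) overlapped. Relative to the 11 mature neutrophil markers, only *Fpr2* was still lower in every JAK inhibitor-treated mouse (-0.33, exact permutation p = 0.1). *Fpr1* differed by -0.14 (exact permutation p = 0.6) and *C3ar1* by -0.55 (exact permutation p = 0.3) with overlap. The mean of these markers fell by 0.91, beside a median log2 fold change of -0.59. *Il1r2* weighs most on that mean (-3.86), with an FPKM of 58.4, 31.5 and 846 with vehicle and 8.56, 4.96 and 8.31 with JAK inhibitor. The comparison was not repeated without it. Relative to the 11 macrophage markers, *Fpr1* (-0.10), *Fpr2* (-0.29), *C5ar1* (0.34) and *C3ar1* (-0.51) all overlapped, with exact permutation p between 0.2 and 0.9, and *Cmklr1* (0.36) overlapped too. *Ltb4r1* was higher relative to both lists, by 0.78 and 0.82, without overlap (exact permutation p = 0.1 each). *Ptafr* differed by 0.73 relative to the mature neutrophil markers and by 0.78 relative to the macrophage markers, both with overlap. *Ltb4r1*, *Ptafr*, *C5ar1* and *Cmklr1* thus changed sign with the reference list. The part of macrophages or mature neutrophils in the lower receptor levels was not tested.

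**Figure D5:**
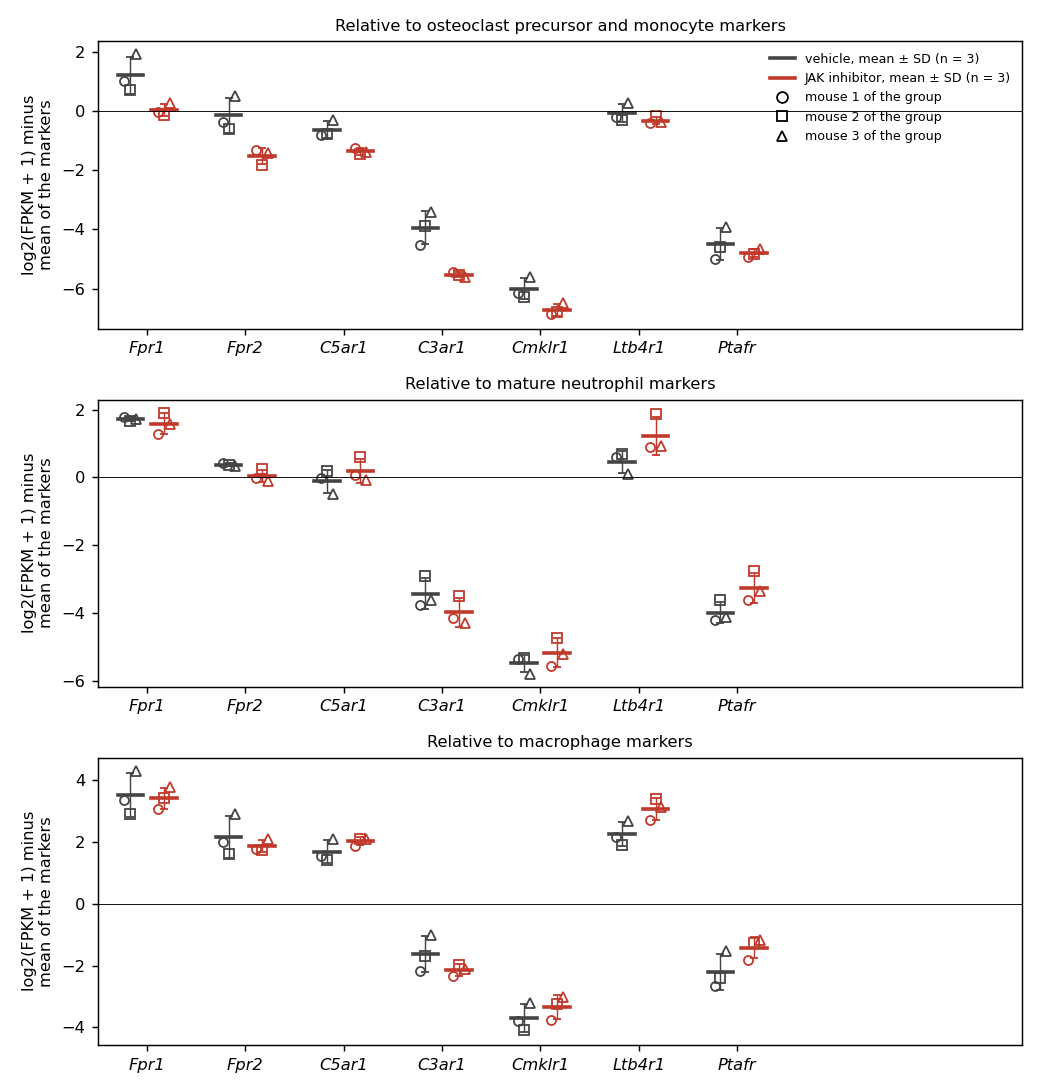
Log2(FPKM + 1) of each tested receptor minus the mean log2(FPKM + 1) of the osteoclast precursor and monocyte markers (top), mature neutrophil markers (middle) or macrophage markers (bottom) in the same library, for vehicle-treated (grey) and JAK inhibitor-treated (red) mice with mean (thick line) and SD (thin bar), n = 3. *Fpr1*, *Fpr2*, *C5ar1*, *C3ar1* and *Cmklr1* are separate between groups in the top panel, and all 5 overlap in the bottom panel.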

How the data were processed

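RNA-Seq was performed on EGFP+ cells sorted from the calvaria of 6 mice, with 75-base single-end reads per the methods, which name a TruSeq Stranded kit, whereas the sample labels name SMART-Seq HT and Nextera. The authors deposited FPKM values in 1 table per mouse. The submitters' processing notes name mm10, TopHat2 2.0.13, Bowtie2 2.2.3, SAMtools 0.1.19 and Cufflinks 2.2.1, without their roles or settings, and the annotation is not given in the sources used here. Groups and mouse numbers came from the sample labels.

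Genes were kept if any mouse reached an FPKM of 1, which left 11301. Their deposited values, as log2(FPKM + 1), were fitted in limma 3.58.1 (R 4.3.3) with a trended empirical Bayes step and no block, and p was adjusted by the Benjamini-Hochberg method over all of them. Single values had an exact 2-sided permutation test. The study gives 3 mice per group, so replicates are separate animals. Counts of reads are not known, so no counting interval can be given. Alternatives were a pseudocount of 0.1, no filter, a filter of 1 in 3 mice, scaling by quantiles or by the median ratio, no trend, library weights, a block by replicate number, and leaving out single mice.

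The receptors and all gene lists were chosen with earlier results of these data known, so their counts are descriptions. Named are all 8 receptors and their paralogs, chosen ligands and enzymes, and up to 6 genes of each pathway list with the smallest unadjusted p under 0.05. Also named are the 3 genes most like each lower receptor and the 3 most abundant genes of each marker list. *Csf1r*, *Csf3r*, *Il1r2*, *Gnai2*, *Pik3cg*, *Ms4a1*, *Pax5* and *Sp7* were added after their values were seen. So were *Ptger2*, *Pafah1b2*, *Pafah1b3*, *Pafah2*, *Lpcat1* and *Lpcat4*. Positions are from GENCODE M21 on GRCm38, and promoter sequences and shares are from RefSeq on GRCm38.p6, found for 7 of the 8 receptors. Sequence searches and plots used Python 3.11.15 with NumPy 2.4.6, pandas 2.3.3 and matplotlib 3.10.9.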

Additional observations from a re-analysis of the deposited data

How the results depend on the processing

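The log2 fold changes of *Fpr1* (-1.33 to -0.75), *Fpr2* (-1.49 to -0.96), *C5ar1* (-0.72 to -0.49) and *C3ar1* (-1.74 to -1.25) stayed below 0 and under an unadjusted limma p of 0.05 in all 14 alternatives. The adjusted p in limma passed 0.05 for *C3ar1* in 5 alternatives (0.0263 to 0.226 over all 14), for *Fpr2* in 3 (0.0260 to 0.302), for *Fpr1* in 2 (0.0324 to 0.322) and for *C5ar1* in 0 (0.0507 to 0.302). *Ptafr* ranged from -0.34 to 0.062 with 1 mouse left out, and was 0.062 without vehicle-treated mouse 3. *Ltb4r1* ranged from -0.27 to -0.010, passing the unadjusted threshold without vehicle-treated mouse 2. *Cmklr1* was -0.50 with weights for each library, -1.14 with a pseudocount of 0.1 and -0.76 to -0.44 with 1 mouse left out. It was not tested with the filter of 1 in 3 mice, and missed the unadjusted threshold in 5 of 13 alternatives. It passed the main filter through the vehicle group only, so these values are descriptions. The count of all genes past the adjusted threshold, 15, was 2 with no filter, 34 with a filter of 1 in 3 mice, 2 without the trend, 63 with weights, 67 with the replicate block and 3 to 95 with 1 mouse left out. The count of 8 higher genes over the 4 pathway lists was 5 with no filter, 5 without the trend and 4 to 12 with 1 mouse left out. The difference in the *C5ar1* to *C3ar1* ratio was 1.13 with a pseudocount of 0.1. The cause of these changes was not tested. With the replicate block *Fpr1* (adjusted p = 0.0324 in limma) and *Fpr2* (adjusted p = 0.0260 in limma) passed 0.05 after adjustment, which they did not without it, and 5 receptors were lower at the unadjusted threshold in both fits. Mice with the same number correlated at 0.0158, 0.0542 and -0.0002 in their deviations from the group means, not every mouse correlated best with its own number, and the numbers were not taken as pairs. The depth is unknown, so how precisely the low levels of *Cmklr1* and *Hcar2* were measured cannot be given, and 3 mice per group allow no exact p below 0.1.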
